A study of Homo sapiens with 95 samples.

Results

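The subject was the metallothionein family in AALE cells, an immortalized line of human bronchial epithelium, read in 95 wells by 3′ digital gene expression, which tags each captured mRNA molecule with a unique molecular identifier (UMI) beside its poly(A) tail. The members were chosen by symbol, with earlier results of these data known, and were 8 of the 23895 listed genes. MT2A, MT1X, MT1E, MT1F, MT1G and MT1M encode metallothioneins, MTF1 encodes the zinc-sensing transcription factor, and SLC30A1 encodes the zinc exporter of the plasma membrane. The values were UMI counts, given here as CPM, the count scaled to a common total per well. The choice rested on CPM levels in these wells and on the MT2A difference between FAT1 and GFP cells under DMSO, so that difference is described below without a test.

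Metallothioneins are small cysteine-rich proteins that bind zinc, copper and cadmium and buffer free metal ions in the cytosol. When free zinc rises, MTF1 binds metal response elements in the promoters of the metallothionein genes and of SLC30A1 and raises their transcription. Metals, glucocorticoids and oxidative stress are known inducers, and MT2A is the main form in many human cell types.

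The 6 metallothionein members lie in a single cluster on chromosome 16, where 15 genes of the family span 119.1 kb in the hg19 assembly (56598985 to 56718108). In order along it stand MT2A (56642496 to 56643409), MT1E (56659387 to 56661024), MT1M (56666571 to 56667893), MT1F (56691643 to 56694610), MT1G (56700642 to 56701977) and MT1X (56716382 to 56718108). MT1G is on the minus strand and the other metallothionein members are on the plus strand. MTF1 (38275246 to 38325264) and SLC30A1 (211744910 to 211752503) are on the minus strand of chromosome 1.

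RefSeq promoters in the GRCh38.p14 assembly were found for 4 of the 8 members: MT2A, MT1X, MTF1 and SLC30A1. MT1E, MT1F, MT1G and MT1M were not in the table used here. The 250 bases before the transcription start are shown for the targets of MTF1 because the metal response element is the feature through which they are known to be controlled together. Capitals mark the core of that element, TGCACNC or TGCGCNC, on either strand. The MT2A promoter is chr16:56608334-56608583 on the plus strand, that of MT1X is chr16:56682220-56682469 on the plus strand, and that of SLC30A1 is chr1:211579162-211579411 on the minus strand.
MT2A: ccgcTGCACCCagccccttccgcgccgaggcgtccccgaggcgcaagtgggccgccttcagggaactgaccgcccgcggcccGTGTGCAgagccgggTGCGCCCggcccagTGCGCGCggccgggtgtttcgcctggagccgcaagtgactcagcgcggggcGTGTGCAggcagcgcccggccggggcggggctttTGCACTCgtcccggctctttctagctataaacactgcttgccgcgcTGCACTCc
MT1X: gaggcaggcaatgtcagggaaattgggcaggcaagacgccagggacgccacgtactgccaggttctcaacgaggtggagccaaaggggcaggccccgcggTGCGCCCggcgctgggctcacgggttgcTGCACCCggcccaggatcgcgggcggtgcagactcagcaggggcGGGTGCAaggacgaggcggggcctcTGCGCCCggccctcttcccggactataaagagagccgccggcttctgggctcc
SLC30A1: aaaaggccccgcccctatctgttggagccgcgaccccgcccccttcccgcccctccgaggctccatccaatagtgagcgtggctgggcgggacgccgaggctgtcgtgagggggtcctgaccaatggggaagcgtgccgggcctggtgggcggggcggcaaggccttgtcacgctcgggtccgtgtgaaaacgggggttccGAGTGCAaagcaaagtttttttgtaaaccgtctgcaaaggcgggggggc

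Counted on both strands, the MT2A promoter held 7 cores, the MT1X promoter 4, the SLC30A1 promoter 1 and the MTF1 promoter 0. Of 35116 promoters of the same length in the table, 24.8% held at least 1 core and 0.12% held 5 or more. Of the other genes of the cluster, MT1H held 8 cores and MT1B and MT4 held 3 each. A match marks only letters in the sequence.

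The wells fell into 8 populations under 4 chemicals. In the overexpression set 4 populations each received 1 transgene, PIK3CA, NRG1, FGFR1 or NRF2 (encoded by NFE2L2), and cells with an empty vector expressing the HcRed reporter (HCRED in the plots) were their control. Knockout populations were targeted by CRISPR at FAT1 or CDKN2A, and cells that received the Cas9-EGFP plasmid PX458 without a guide, called GFP, were their control. In SAGM medium each met the tobacco nitrosamine NNK (490 µM), the combustion product benzo[a]pyrene (BaP, 173 µM), the condensate of cigarette smoke (CSC, 24 µg/ml) or DMSO, the vehicle. Whether a population was a single clone is not given in the sources used here. Comparisons used the 82 wells whose replicate number has 1 digit, in which 25 groups had 3 wells. The study calls the wells of a group biological replicates, and the labels do not say whether each was a separate culture. If they were not, the p-values do not cover variation between cultures. Each group filled neighbouring wells of 1 plate row, each chemical had its own rows, and pairs of populations shared columns in alternate rows, so a group and its place on the plate cannot be told apart.

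Total counts in the 82 wells ran from 692446 to 1895735 (median 1293615). NRG1 replicate 2 under NNK stood apart in its TMM scaling factor, 1.41 against 0.893 to 1.24 in the other wells. NFE2L2, FGFR1, NRG1 and PIK3CA were higher in every well of the population overexpressing them than in any HcRed well. FAT1 was lower in every FAT1 well (0 to 4.22 CPM) than in any GFP well (4.25 to 11.6 CPM), while CDKN2A in CDKN2A wells (19.0 to 25.9 CPM) overlapped the GFP wells (24.2 to 43.1 CPM). All 8 markers of basal airway epithelium were present in every well, led by KRT17 (median 178 CPM) and KRT5 (median 174 CPM). The 14 listed markers of other cell types summed to 7.44 to 49.3 CPM, CD68 having the highest mean (18.4 CPM), and the endothelial genes VWF and CDH5 and the ciliated-cell gene FOXJ1 were at 0 in all 82 wells. The endothelial gene PECAM1 was present at a mean of 1.39 CPM and was at 0 in 17 wells. The fibroblast gene DCN had a mean of 3.98 CPM and was at 0 in 8 wells. Summed basal markers were at 336 to 442 CPM in FAT1 wells and 471 to 734 CPM in GFP wells, and at 363 to 506 CPM in PIK3CA wells, 407 to 775 CPM in NRG1 wells and 687 to 900.0 CPM in HcRed wells. Summed markers of other cell types were at 12.7 to 29.75 CPM in FAT1 wells and 7.44 to 19.25 CPM in GFP wells. They were at 23.64 to 46.43 CPM in PIK3CA wells, 24.56 to 49.3 CPM in NRG1 wells and 14.71 to 41.15 CPM in HcRed wells. The part of either set of markers in the metallothionein results was not tested.

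MT2A had the second highest mean of all genes in the 82 wells. Its level ran from 5811 to 41828 CPM with a median of 19992 CPM, on 8582 to 62779 counts a well. MT1E followed at 1032 to 3094 CPM and MT1X at 1062 to 2845 CPM. The other members were far lower, with means of 24.0 CPM for MT1F, 9.95 for MT1G, 4.44 for MTF1, 1.49 for SLC30A1 and 1.08 for MT1M. MT1M had no count in 24 wells and SLC30A1 in 18. Each molecule gives a single count here whatever its transcript length, so these levels need no division by length. The cDNA reads were 46 bases long, and only UMIs aligning to 1 gene were counted. Of the 46-base windows in the last 300 bases of the annotated transcript, 21.6% of those of MT2A, 32.5% of MT1X and 3.5% of MT1E occurred without a mismatch in a transcript of another gene. With up to 3 mismatches allowed within the family, the shares were 47.8% for MT2A, 43.9% for MT1X and 60.8% for MT1E. They were 37.3% for MT1F, 58.0% for MT1G, 79.6% for MT1M, 52.5% for MT1A and 70.6% for MT1H. Levels set between family members are therefore less certain than the level of 1 member between wells.

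**Figure D1:**
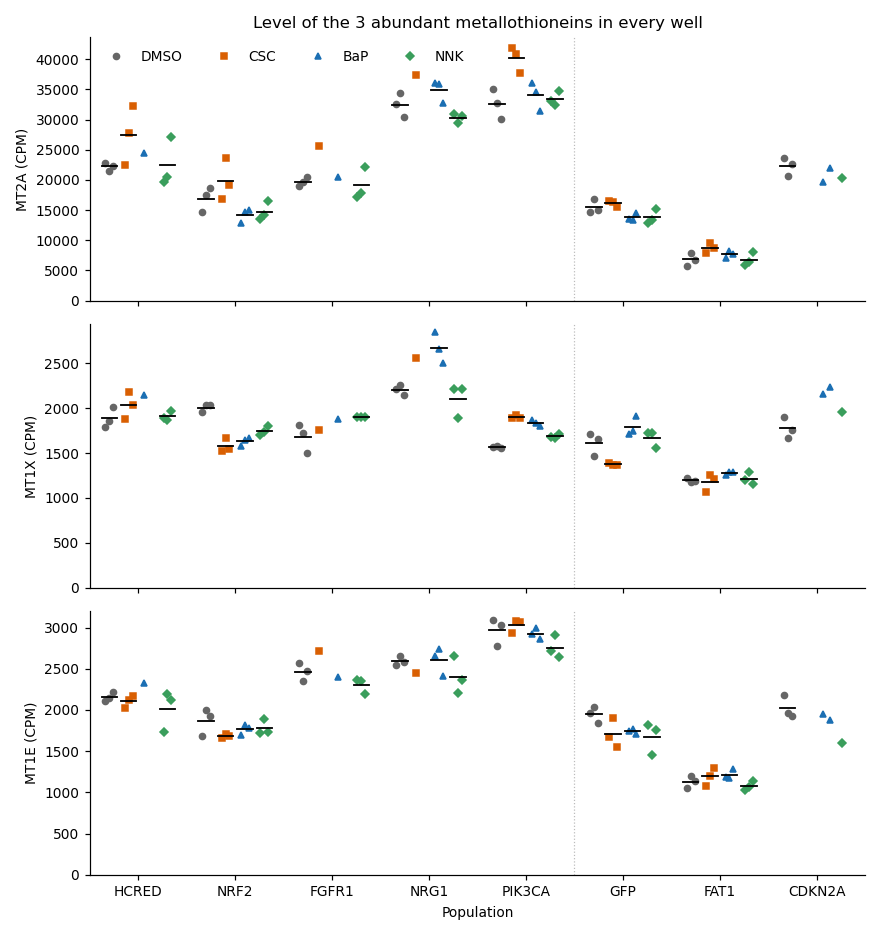
CPM of MT2A, MT1X and MT1E (vertical axes, from 0) in each of the 82 wells, by population (horizontal axis) and chemical (colour and shape), with a bar at the mean of each group of 3 wells and a dotted line between the overexpression and knockout sets. FAT1 wells lay lowest for all 3 genes within each chemical, and the DMSO means of MT2A were highest in NRG1 and PIK3CA cells.

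Under DMSO the MT2A level rose in the order FAT1, GFP, NRF2, FGFR1, HcRed, CDKN2A, NRG1 and PIK3CA. The group means were 6831 CPM in FAT1 cells, 15540 in GFP cells, 16906 in NRF2 cells, 19688 in FGFR1 cells, 22219 in HcRed cells, 22347 in CDKN2A cells, 32476 in NRG1 cells and 32618 in PIK3CA cells. As these are bulk measurements, fewer cells with the transcript and less of it per cell cannot be told apart. Neighbours whose wells overlapped, and which their spread did not separate, were GFP with NRF2, HcRed with CDKN2A and NRG1 with PIK3CA. Among groups of 3 wells, FAT1 cells were also lowest and PIK3CA cells highest under CSC and under NNK. Under BaP FAT1 cells were lowest, and NRG1 and PIK3CA cells were highest with overlapping wells. FAT1 wells were below those of every other such group for MT1X and for MT1E too, under each of the 4 chemicals.

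Each overexpressed gene was compared with HcRed under DMSO by limma-voom across all genes tested, and these comparisons share the HcRed wells. A gene was called at a Benjamini-Hochberg adjusted p below 0.05, and the share of all genes called is the background for the members. In NRF2 cells 3 of 7 tested members were called where 4.91% of all genes were, in FGFR1 cells 1 of 8 where 0.914% were, in NRG1 cells 3 of 8 where 3.08% were and in PIK3CA cells 3 of 7 where 5.4% were. The FGFR1 background turned on single wells, with 104 genes called from all of them and 50 to 329 when 1 was left out. The members were picked with results known, so these shares are a description.

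MT2A was at 32551, 34404 and 30472 CPM in the NRG1 wells and at 35083, 32707 and 30064 CPM in the PIK3CA wells, against 22755, 21533 and 22370 CPM in the HcRed wells. All 6 wells lay above all HcRed wells. The log2 fold change was 0.63 (SE 0.02, adjusted p = 6.8e-50) in NRG1 cells, the smallest p of the 11328 genes tested there, and 0.62 (SE 0.02, adjusted p = 1.07e-38) in PIK3CA cells. These standard errors and p-values, like those of the other limma fits, lean on a variance shared between genes. From the wells alone the differences in log2 CPM were 0.55 (SE 0.06) and 0.55 (SE 0.07). The basal markers called beside it were 3 of 8 (KRT17, KRT5 and KRT14 lower) in NRG1 cells and 4 of 8 (EPCAM higher, KRT17, KRT5 and KRT14 lower) in PIK3CA cells. Of the tested markers of other cell types, 1 of 2 (DCN higher) was called in NRG1 cells and 0 of 2 in PIK3CA cells. The part of these markers was not tested.

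MT1E was also higher in both populations. It was at 2543, 2657 and 2579 CPM in NRG1 wells and at 3094, 2774 and 3028 CPM in PIK3CA wells, against 2111, 2144 and 2223 CPM in HcRed wells, with no overlap. Its log2 fold changes were 0.34 (adjusted p = 2.14e-16) and 0.52 (adjusted p = 2.8e-19).

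MT1X went in opposite directions in these cells. The NRG1 wells held 2217, 2256 and 2141 CPM and the PIK3CA wells 1570, 1580 and 1560 CPM, on either side of the HcRed wells at 1789, 1855 and 2014 CPM. It rose by a log2 fold change of 0.30 in NRG1 cells (adjusted p = 1.73e-11) and fell by 0.20 on the log2 scale in PIK3CA cells (adjusted p = 0.000638). The PIK3CA call was lost when HcRed replicate 3 was left out (-0.13).

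NRF2 cells held less MT2A than HcRed cells, at 14630, 17489 and 18598 CPM, every well below every HcRed well. The log2 fold change was -0.29 (SE 0.03, adjusted p = 1.65e-14), or -0.40 (SE 0.11) in log2 CPM from the wells alone, and DESeq2 did not call it (adjusted p = 0.0629). MT1X was called higher in NRF2 cells at 0.19 (adjusted p = 0.000162), although its wells, at 1952, 2034 and 2035 CPM, overlapped the HcRed wells in plain CPM. MT1E was at 1687, 2002 and 1921 CPM, below every HcRed well, and its log2 fold change of -0.11 missed the threshold (adjusted p = 0.0763). It was called without the filter on low counts (adjusted p = 0.0164) and without HcRed replicate 2 or NRF2 replicate 2 or 3. Under CSC the direction of MT1X was the other: 1524, 1672 and 1549 CPM in NRF2 cells lay below 1875, 2181 and 2037 CPM in HcRed cells, a log2 fold change of -0.36 (adjusted p = 4.72e-08).

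Under CSC 4 of 7 tested members were called in NRF2 cells, all of them lower, where 2.88% of all genes were called. Beside MT1X those were MT2A (-0.50, adjusted p = 1.86e-09), MT1E (-0.31, adjusted p = 2.75e-07) and MT1G (-2.11, adjusted p = 0.0328). The MT2A wells of NRF2 cells under CSC, at 16840, 23610 and 19095 CPM, overlapped the HcRed wells at 22401, 27766 and 32299 CPM, and DESeq2 did not call MT2A there (adjusted p = 0.298). The MT1G call was lost without any 1 of 5 of the 6 wells, HcRed replicate 2 being the exception (range -2.40 to -1.75), and without the filter on low counts (adjusted p = 0.0728).

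In FGFR1 cells the called member was MT1F. Its wells were at 36.0, 37.01 and 32.3 CPM against 16.3, 22.1 and 18.6 CPM in HcRed cells, with no overlap. The log2 fold change was 0.86 (SE 0.23, adjusted p = 0.0268). DESeq2 did not call it (adjusted p = 0.262), and the call was lost without any 1 of 5 of the 6 wells, FGFR1 replicate 3 being the exception (range 0.77 to 0.97). MT2A in FGFR1 cells, at 18936, 19589 and 20538 CPM, lay below every HcRed well, but the log2 fold change of -0.19 (SE 0.06) missed the threshold (adjusted p = 0.0712). It was called without the filter on low counts (adjusted p = 0.00267) and without FGFR1 replicate 2 (-0.22) or 3 (-0.16). MT1E, at 2566, 2354 and 2470 CPM, lay above every HcRed well with a log2 fold change of 0.18 (adjusted p = 0.483) and was called without FGFR1 replicate 3 (0.23).

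MT1G rested on few counts. Under DMSO it was at 0.787, 2.72 and 2.11 CPM in NRF2 cells against 11.1, 8.09 and 6.97 CPM in HcRed cells, and fell by 1.97 on the log2 scale (SE 0.54, adjusted p = 0.0158). That call was lost without HcRed replicate 1 or without any 1 of the NRF2 wells (range -2.25 to -1.59). In PIK3CA cells MT1G was at 3.31, 3.36 and 2.28 CPM, also with no overlap, and the log2 fold change of -1.35 missed the threshold (adjusted p = 0.0547). It was called by edgeR (adjusted p = 0.0359) and by limma without HcRed replicate 3 (-1.47). GFP cells held the most MT1G, 12 wells at 16.8 to 43.3 CPM over the 4 chemicals.

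**Figure D2:**
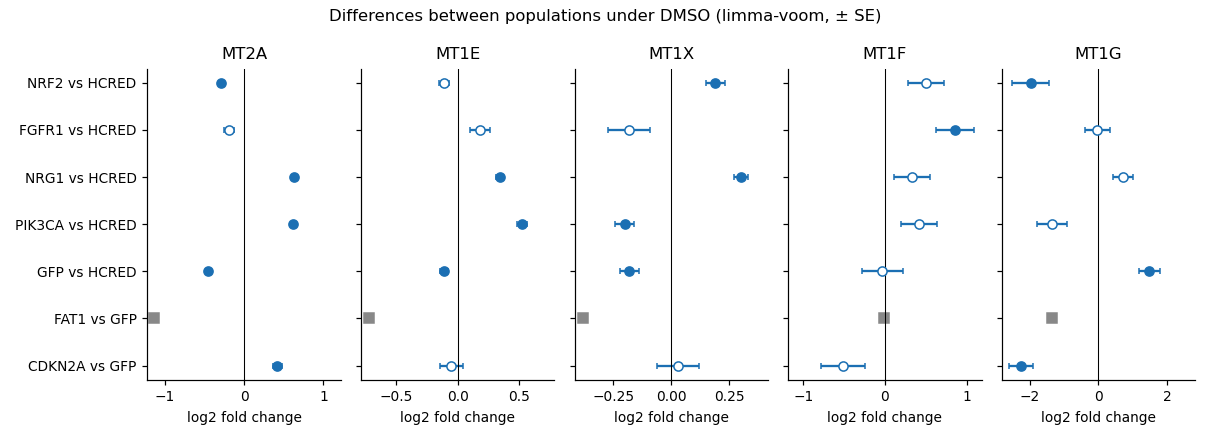
Log2 fold change (horizontal axis) for 5 metallothioneins in the 7 comparisons of populations under DMSO (vertical axis), by limma-voom, as points with their standard error, filled where the adjusted p was below 0.05, and as grey squares without error or test for FAT1 against GFP cells. MT2A was higher in NRG1 and PIK3CA cells than in HcRed cells, while MT1X was higher in NRG1 and lower in PIK3CA cells.

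Neither control carried a perturbed gene, yet 4 of 7 tested members were called between GFP and HcRed cells under DMSO, where 10.8% of all genes were. MT2A was at 14746, 16806 and 15068 CPM in GFP cells, below all HcRed wells, and the log2 fold change stood at -0.46 (SE 0.02, adjusted p = 3.4e-24). From the wells alone the difference in log2 CPM was -0.52 (SE 0.06). These GFP wells had a part in the choice of members. The count of members called and the values of every member here are therefore read as a description. MT1X, with a log2 fold change of -0.18 (adjusted p = 0.00281), and MT1E, with -0.11 (adjusted p = 0.0336), were lower. MT1G was higher, at 16.8, 30.7 and 24.9 CPM, with 1.48 on the log2 scale (SE 0.30, adjusted p = 0.000277). DESeq2 called MT2A and MT1G but neither MT1X (adjusted p = 0.232) nor MT1E (adjusted p = 0.203). The MT1E call was also lost without GFP replicate 3 or any 1 of the HcRed wells (range -0.13 to -0.05), and the MT1X call without GFP replicate 2 or HcRed replicate 3 (range -0.22 to -0.11). Knockout and overexpression populations are therefore each read against their own control.

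In FAT1 cells under DMSO MT2A was at 5811, 7886 and 6796 CPM, against 14746, 16806 and 15068 CPM in GFP cells. The mean of the FAT1 wells was 0.44 times that of the GFP wells. MT1E was at 1055, 1196 and 1139 CPM against 1961, 2040 and 1836 CPM. MT1X was at 1223, 1173 and 1192 CPM against 1710, 1472 and 1661 CPM. MT1G was at 8.25, 10.2 and 7.71 CPM against 16.8, 30.7 and 24.9 CPM. For none of these 4 genes did the groups overlap. The log2 fold changes were -1.13 for MT2A, -0.72 for MT1E, -0.38 for MT1X and -1.34 for MT1G. MT1F overlapped, at 15.2, 19.3 and 17.0 CPM against 22.7, 13.3 and 19.1 CPM. In this contrast 14.1% of all genes were called, and no test of the members is given since it had a part in their choice.

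The wells under CSC, BaP and NNK had no part in that contrast and were compared by themselves. They come from the same populations, and the CPM levels behind the choice of members included them. The counts of members called and the adjusted p under these chemicals are therefore a description and no independent check. MT2A was lower in FAT1 cells under all of them. Under CSC the FAT1 wells were at 7861, 9475 and 8706 CPM and the GFP wells at 16558, 16293 and 15551 CPM. Under BaP they were at 7016, 8265 and 7660 CPM against 13455, 13355 and 14554 CPM. Under NNK they were at 5936, 6379 and 8111 CPM against 12807, 13400 and 15133 CPM. No FAT1 well reached a GFP well under any of these chemicals. The log2 fold changes were -0.81 (SE 0.06, adjusted p = 2.03e-20), -0.79 (SE 0.03, adjusted p = 1.23e-22) and -0.89 (SE 0.05, adjusted p = 1.21e-24). From the wells alone the differences in log2 CPM under CSC, BaP and NNK were -0.90 (SE 0.08), -0.85 (SE 0.08) and -1.03 (SE 0.15).

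Under CSC 3 of 8 tested members were called in FAT1 cells where 11.2% of all genes were, under BaP 4 of 7 where 11.6% were, and under NNK 4 of 8 where 13.5% were, and each of those calls was lower. The basal markers called were 4 of 8 (KRT17, KRT14, ITGA6 and KRT5 lower) under CSC, 3 of 8 (KRT14, KRT17 and KRT5 lower) under BaP and 6 of 8 (EPCAM higher, KRT14, KRT17, KRT5, ITGA6 and CDH1 lower) under NNK, and their part was not tested. MT1E fell by 0.43, 0.47 and 0.51 on the log2 scale under CSC, BaP and NNK (adjusted p = 4.25e-05, 1.32e-09 and 1.96e-08). MT1G fell by 1.36, 1.03 and 1.72 (adjusted p = 0.000305, 0.00281 and 3.63e-06). MT1X fell by 0.42 under BaP (adjusted p = 6.73e-09) and by 0.33 under NNK (adjusted p = 3.34e-05). Under CSC its log2 fold change was -0.14 (95% interval -0.37 to 0.09, adjusted p = 0.3), although the wells, at 1062, 1251 and 1212 CPM in FAT1 cells and 1389, 1368 and 1364 CPM in GFP cells, did not overlap. MT1X was called there when FAT1 replicate 2 was left out (-0.24).

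CDKN2A cells differed from GFP cells under DMSO in 3 of 8 tested members, where 17.9% of all genes were called, and this comparison shares its GFP wells with that of FAT1 cells. Those wells had a part in the choice of members. The count of members called and the values of every member here, MTF1 included, are therefore read as a description. MT2A was at 23701, 20704 and 22637 CPM, above all GFP wells, and the log2 fold change stood at 0.42 (SE 0.06, adjusted p = 1.67e-08). From the wells alone the difference in log2 CPM was 0.52 (SE 0.08). MT1G was at 6.14, 6.48 and 3.18 CPM and fell by 2.26 (SE 0.34, adjusted p = 1.25e-07). MT1X stood at 0.03 (95% interval -0.22 to 0.28) and MT1E at -0.05 (95% interval -0.28 to 0.19), neither of them called, though MT1X was called without CDKN2A replicate 2 (0.17). The third call was MTF1, given further on.

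**Figure D3:**
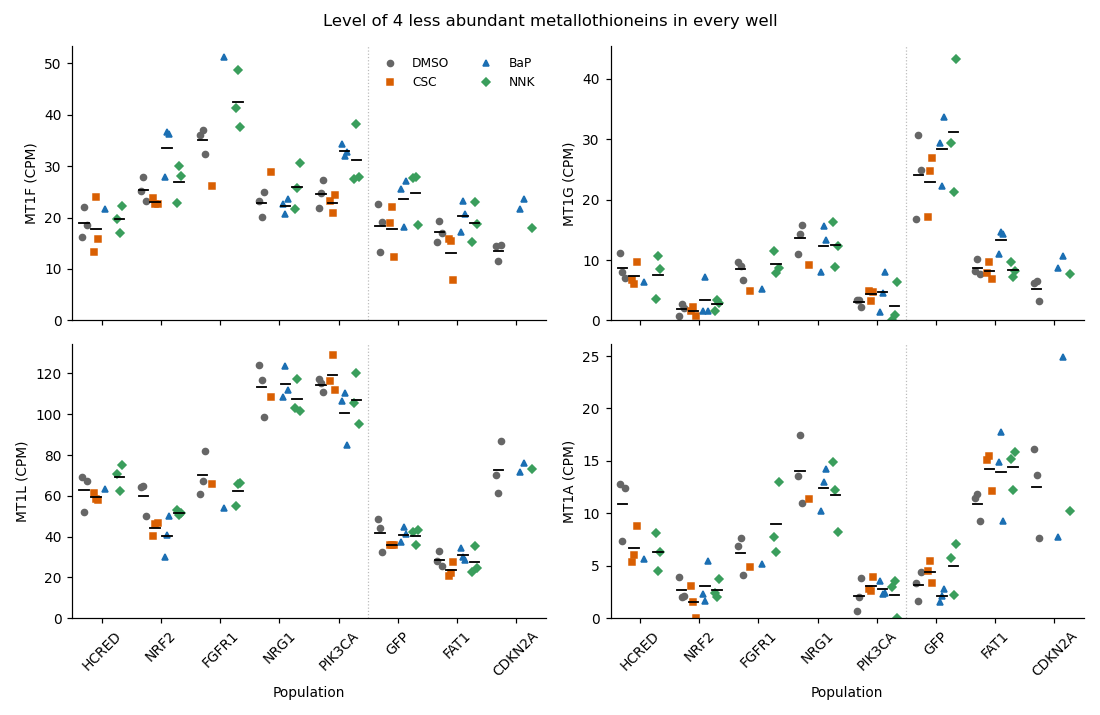
CPM of MT1F, MT1G, MT1L and MT1A (vertical axes, from 0) in each of the 82 wells by population (horizontal axis) and chemical (colour and shape), with bars at the means of groups of 3 wells. MT1G was highest in GFP cells, and every FAT1 well held more MT1A than any GFP well.

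The balance within the family shifted between populations as well as its total. The summed count of 16 metallothionein genes took 0.816% to 1.03% of all counts in FAT1 wells under DMSO, 1.85% to 2.04% in GFP wells, 2.56% to 2.68% in HcRed wells and 3.48% to 3.99% in PIK3CA wells. MT2A made up 73.8% ± 2.5 of that sum in FAT1 cells and 87.4% ± 0.88 in PIK3CA cells (SD, n = 3). The ratio of MT2A to MT1X counts under DMSO was 5.73 ± 0.99 in FAT1 cells, 8.41 ± 0.84 in NRF2 cells, 9.70 ± 1.5 in GFP cells, 11.8 ± 0.82 in HcRed cells, 14.7 ± 0.51 in NRG1 cells and 20.8 ± 1.5 in PIK3CA cells (SD, n = 3). This ratio is free of any scaling between wells, and the DMSO wells of FAT1, HcRed, NRG1 and PIK3CA cells did not overlap each other. Because reads that match several family members are not counted, the ratio is compared between wells and is not a ratio of molecules.

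**Figure D4:**
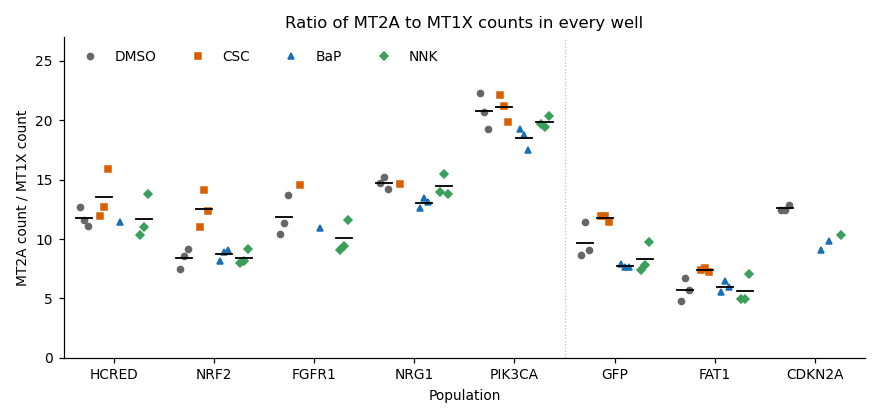
Ratio of MT2A to MT1X counts (vertical axis, from 0) in each of the 82 wells by population (horizontal axis) and chemical (colour and shape), with bars at the means of groups of 3 wells. All PIK3CA wells lay above the wells of every other population, and within each chemical the FAT1 wells lay below those of the other groups of 3 wells.

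Each chemical was set against DMSO over all populations that had 3 wells with it and 3 with DMSO, 5 for CSC, 5 for BaP and 7 for NNK. FAT1 and GFP cells were among them each time, so the fits draw in part on the DMSO wells behind the choice of members. Their counts of members called and adjusted p for members are therefore read as a description. CSC raised MT2A by 0.27 on the log2 scale (SE 0.04, adjusted p = 1.24e-08), 1 of 8 tested members being called where 5.81% of all genes were. The mean of MT2A under CSC was 1.24 times that under DMSO in HcRed cells, 1.17 times in NRF2 cells, 1.23 times in PIK3CA cells, 1.04 times in GFP cells and 1.27 times in FAT1 cells. In PIK3CA cells alone did the wells not overlap, at 41828, 40911 and 37621 CPM under CSC against 35083, 32707 and 30064 CPM under DMSO. MT1X (-0.03, 95% interval -0.11 to 0.05) and MT1E (-0.04, 95% interval -0.10 to 0.02) were not called under CSC. In the same fit 2 of 8 (KRT14 and KRT5 lower) basal markers and 1 of 4 (CD68 higher) tested markers of other cell types were called. In these populations the basal markers summed to 340.5 to 924 CPM under CSC and 389.6 to 988 CPM under DMSO, and the others to 13.4 to 46.4 CPM and 8.39 to 34.5 CPM. Their part in the MT2A result was not tested.

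BaP left MT2A at a log2 fold change of 0.03 (95% interval -0.03 to 0.09, adjusted p = 0.58) and raised 2 of 8 tested members, MT1X and MT1F, where 9.16% of all genes were called. MT1X rose by 0.14 (SE 0.03, adjusted p = 0.0018), and its wells under BaP lay above the DMSO wells in NRG1, PIK3CA, GFP and FAT1 cells but below them in NRF2 cells. In NRF2 cells it was at 1578, 1646 and 1669 CPM under BaP against 1952, 2034 and 2035 CPM under DMSO. MT1F rose by 0.33 (SE 0.09, adjusted p = 0.0117). Its wells were separate in PIK3CA cells, with 34.3, 32 and 32.8 CPM under BaP against 21.9, 24.8 and 27.4 CPM under DMSO. In this fit 3 of 8 (KRT14, KRT5 and ITGA6 lower) basal markers and 1 of 3 (CD68 higher) tested markers of other cell types were called. The basal markers summed to 336 to 865 CPM under BaP and 389.6 to 988 CPM under DMSO, and the others to 7.44 to 43.9 CPM and 8.39 to 36.0 CPM, and their part was not tested.

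Under NNK limma called 0 of 8 tested members, where 7.22% of all genes were called, and 1 member had an unadjusted p below 0.05. That was MT1F, at 0.25 on the log2 scale (SE 0.09, adjusted p = 0.0649), which edgeR (adjusted p = 0.0486) and DESeq2 (adjusted p = 0.0316) each called. It was also called by limma when any 1 of 15 of the 42 wells was left out (range 0.22 to 0.30). Without NRG1 replicate 2 under NNK, whose MT1X level of 1895 CPM was below the 2212 and 2211 CPM of the other NRG1 wells, MT1X was called as well (0.10, against 0.05 with it). That well, whose scaling factor stood apart, also moved the background, with 2245 genes called without it against 819 with it. MT2A stood at -0.02 under NNK (95% interval -0.12 to 0.07). Of the basal markers 5 of 8 (CDH1 and KRT17 higher, KRT5, ITGA6 and KRT14 lower) were called, and they summed to 354 to 951 CPM under NNK and 389.6 to 988 CPM under DMSO.

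CSC and BaP were set against each other in the 4 populations with 3 wells under both. Of the members 3 of 7 tested differed, where 4.58% of all genes were called. MT2A was higher under CSC (0.25, SE 0.03, adjusted p = 2.5e-07), while MT1F (-0.60, SE 0.11, adjusted p = 0.000124) and MT1X (-0.16, adjusted p = 0.00256) were lower under CSC than under BaP. Without the filter on low counts MT1X was not called (-0.14, adjusted p = 0.0823). MT1G stood at -0.49 (adjusted p = 0.106) and was called by edgeR (-0.54, adjusted p = 0.0433), with all wells (-0.42) and without PIK3CA replicate 1 under BaP (-0.58).

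**Figure D5:**
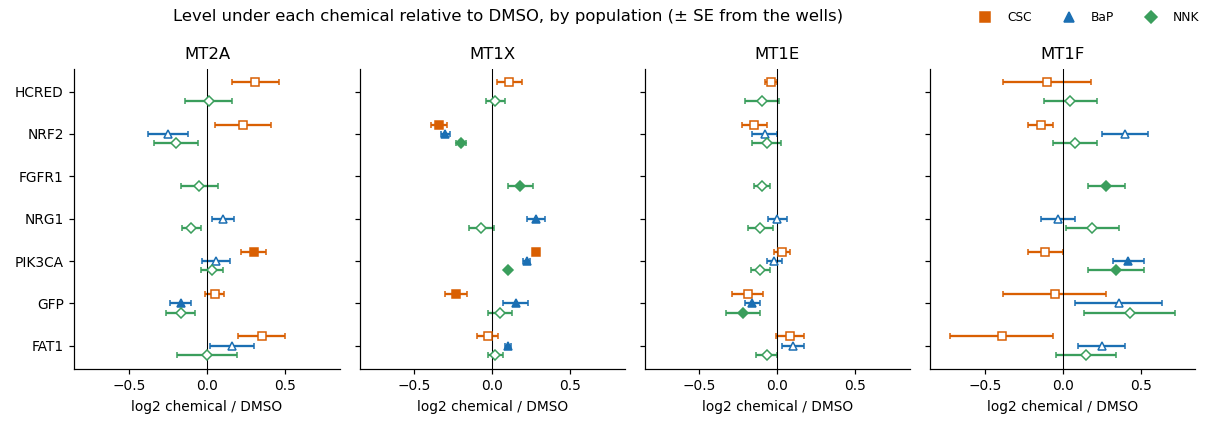
Log2 ratio of the mean CPM under each chemical to that under DMSO (horizontal axis) by population (vertical axis) for MT2A, MT1X, MT1E and MT1F, with the standard error from the wells, and filled points where the 3 wells under the chemical did not overlap the 3 DMSO wells. CSC points for MT2A all lay above 0, and MT1X points of NRF2 cells lay below 0 under CSC, BaP and NNK. The points of a population share its DMSO wells.

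The change from DMSO to a chemical can be set side by side for FAT1 and GFP cells. It draws on the DMSO wells behind the choice of members, so the values are a description and no test is given. The difference of the responses called 0% of all genes for CSC and 0.054% for BaP. From DMSO to CSC the mean of MT2A went from 6831 to 8681 CPM in FAT1 cells and from 15540 to 16134 CPM in GFP cells, with overlapping wells in both. From DMSO to BaP it went to 7647 CPM in FAT1 cells, with overlapping wells, and to 13788 CPM in GFP cells, with none.

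MTF1 and SLC30A1, which sense and export zinc, had few counts. MTF1 averaged 5.72 counts a well and was called in 1 of the 17 comparisons, CDKN2A against GFP cells under DMSO. It was at 7.25, 9.36 and 6.99 CPM against 1.68, 3.32 and 2.20 CPM there, and the log2 fold change was 1.47 (SE 0.51, adjusted p = 0.0308). That call was lost without any 1 of the 3 GFP wells (range 1.32 to 1.69). Under BaP its wells lay above the DMSO wells in NRG1, PIK3CA and GFP cells and below them in NRF2 cells, and the fit across populations gave 0.61 (SE 0.25, adjusted p = 0.119), which was called without NRF2 replicate 3 under BaP (0.69) or NRF2 replicate 2 under DMSO (0.74). SLC30A1 averaged 1.92 counts a well and MT1M 1.35, and neither was called by limma in any comparison with all its wells and the filter on low counts. MT1M in FAT1 against GFP cells under BaP stood at -2.39 (adjusted p = 0.0734) and was called without that filter (-2.40, adjusted p = 0.0107) and without GFP replicate 1 (-2.83). In PIK3CA against HcRed cells SLC30A1 stood at 2.08 on the log2 scale with an SE of 0.90 (adjusted p = 0.204), so that a difference of the size seen for MT2A was not detectable at this depth.

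Of the other metallothioneins, MT1L and MT1A had the highest means. MT1L, annotated as a transcribed pseudogene between MT2A and MT1E (hg19 chromosome 16, 56651475 to 56652592), had a mean of 66.2 CPM. It was higher in NRG1 cells (0.93, SE 0.13, adjusted p = 2.56e-08), PIK3CA cells (0.94, adjusted p = 3.41e-08) and CDKN2A cells (0.71, adjusted p = 0.00206) than in their controls and lower in GFP than in HcRed cells (-0.56, adjusted p = 0.0201). All of the 46-base windows of its annotated end occur in a transcript of another gene entry in the GENCODE annotation. The reads were aligned to RefSeq transcripts, so this share does not say how they were assigned, and the counts of MT1L are uncertain.

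MT1A, at a mean of 7.38 CPM, went against MT2A in FAT1 and PIK3CA cells and with it in its other calls. In FAT1 wells under DMSO it was at 11.4, 11.9 and 9.26 CPM against 3.36, 1.66 and 4.40 CPM in GFP wells. Its log2 fold changes in FAT1 cells were 1.63 under CSC (adjusted p = 0.00242), 2.52 under BaP (adjusted p = 0.000455) and 1.62 under NNK (adjusted p = 0.00184), opposite in sign to those of MT2A, MT1E and MT1G. In PIK3CA cells it was lower than in HcRed cells (-2.32, SE 0.53, adjusted p = 0.0019), where MT2A was higher. In the same direction as MT2A, it was lower in NRF2 cells (-1.80, adjusted p = 0.00749) and in GFP cells (-1.62, adjusted p = 0.015) than in HcRed cells. Likewise it was higher in CDKN2A than in GFP cells (1.77, adjusted p = 0.00292). In NRF2 cells under CSC MT1A was called lower than in HcRed cells, as MT2A was. MT1H, at a mean of 1.29 CPM, was lower in FAT1 cells under BaP (-2.49, adjusted p = 0.0408) and NNK (-3.08, adjusted p = 0.00822). MT3, MT1DP, MT1IP and MT1B were called in no comparison, and MT4, MT1JP and MT1HL1 had no count in the 82 wells.

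Of the zinc importers of the SLC39 family, 0 of 11 tested were called by limma in any of the 4 overexpression comparisons under DMSO, in NRF2 cells under CSC, under CSC across populations or between CSC and BaP. At an unadjusted p below 0.05 there were 3 in NRF2, 0 in FGFR1, 0 in NRG1 and 1 in PIK3CA cells, 1 in NRF2 cells under CSC, 1 under CSC and 3 between CSC and BaP. Under NNK, where 7.22% of all genes were called, 2 of 11 were lower, SLC39A14 (-0.47, SE 0.11, adjusted p = 0.0016) and SLC39A9 (-0.36, SE 0.11, adjusted p = 0.0306). Under BaP (9.16% of all genes) SLC39A9 (-0.34, adjusted p = 0.0137) and the exporter SLC30A7 (-0.29, adjusted p = 0.00866) were lower. In CDKN2A cells (17.9% of all genes) the importer SLC39A4 (2.13, SE 0.47, adjusted p = 0.000289) and the exporter SLC30A6 (0.99, SE 0.20, adjusted p = 8.14e-05) were higher than in GFP cells. Between GFP and HcRed cells (10.8%) 2 of 11 (SLC39A10 and SLC39A4 lower) importers were called. In FAT1 cells 1 of 11 (SLC39A9 lower) importers were called under CSC (11.2%) and 1 of 11 (SLC39A8 lower) under NNK (13.5%), and of the other exporters 1 of 4 (SLC30A6 higher) under BaP (11.6%) and 1 of 4 (SLC30A9 lower) under NNK. In FAT1 cells under DMSO (14.1% of all genes) 1 of 11 importers passed the threshold in each direction. These were SLC39A6, at 0.67, and SLC39A7, at -2.18 on the log2 scale. That contrast had a part in the choice of members, so the values are a description.

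Of the copper-handling genes 2 of 8 (SOD1 and COX17 higher) were called under CSC, where 5.81% of all genes were, and 3 of 8 (SOD1 and COX17 higher, COMMD1 lower) under BaP, where 9.16% were. SOD1, the copper-zinc superoxide dismutase, was higher under CSC (0.20, SE 0.02, adjusted p = 1.43e-11) and BaP (0.16, SE 0.02, adjusted p = 1.42e-08), as was the copper chaperone COX17 under CSC (0.11, adjusted p = 0.0134) and BaP (0.11, adjusted p = 0.000994). Under NNK 1 of 8 (SLC31A1 higher) was called (7.22% of all genes). Against HcRed cells under DMSO the calls were 2 of 8 (ATOX1 and COX17 higher) in NRF2 cells (4.91%), 1 of 8 (SOD1 higher) in NRG1 cells (3.08%), 1 of 8 (ATOX1 higher) in PIK3CA cells (5.4%) and 2 of 8 (SLC31A1 higher, ATOX1 lower) in GFP cells (10.8%), and in NRF2 cells under CSC 2 of 8 (ATOX1 higher, SOD1 lower) (2.88%). Against GFP cells they were 2 of 8 (COX17 and COMMD1 higher) in CDKN2A cells (17.9%), and in FAT1 cells 1 of 9 (COX17 lower) under CSC (11.2%), 3 of 8 (SLC31A2 and SOD1 higher, COX17 lower) under BaP (11.6%) and 2 of 8 (SLC31A2 and ATOX1 higher) under NNK (13.5%).

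Of 5 tested genes of acute metal and proteotoxic stress, limma called 0 under CSC (5.81% of all genes) and 0 under NNK (7.22%), with 0 and 0 at an unadjusted p below 0.05. Under BaP (9.16%) 1 of 5 was called, the chaperone gene DNAJB1, which was higher (0.50, adjusted p = 0.000391) than under DMSO. Other calls of this list were 1 of 5 (BAG3 lower) in NRF2 cells (4.91% of all genes), 1 of 5 (HSPA1B lower) in PIK3CA cells (5.4%) and 2 of 6 (HSPA1A and DNAJB1 higher) in CDKN2A cells (17.9%). There were also 1 of 5 (DNAJB1 higher) in FAT1 cells under BaP (11.6%) and 1 of 5 (DNAJB1 lower) under CSC against BaP (4.58%). Of the glucocorticoid targets, 3 of 9 (GLUL and DUSP1 higher, FKBP5 lower) were called in FAT1 against GFP cells under CSC (11.2% of all genes), 4 of 9 (GLUL and DUSP1 higher, TSC22D3 and FKBP5 lower) under BaP (11.6%) and 4 of 9 (GLUL, DUSP1 and SGK1 higher, FKBP5 lower) under NNK (13.5%). FKBP5, a co-chaperone of the glucocorticoid receptor, was lower in FAT1 cells under CSC (-0.60, adjusted p = 0.00167), BaP (-0.62, adjusted p = 0.000808) and NNK (-0.89, adjusted p = 1.89e-06). Across populations the calls were 2 of 10 (DUSP1 higher, SGK1 lower) under CSC (5.81%), 3 of 10 (DUSP1, GLUL and ERRFI1 higher) under BaP (9.16%), 3 of 10 (DUSP1, GLUL and SGK1 higher) under NNK (7.22%) and 1 of 9 (GLUL lower) under CSC against BaP (4.58%). Between populations under DMSO they were 1 of 10 (KLF9 higher) in NRF2 cells (4.91%), 2 of 10 (GLUL and TSC22D3 lower) in PIK3CA cells (5.4%), 4 of 9 (GLUL and DUSP1 higher, KLF9 and FKBP5 lower) in CDKN2A cells (17.9%) and 3 of 9 (TSC22D3 and KLF9 higher, DUSP1 lower) in GFP against HcRed cells (10.8%). These lists, too, were drawn up with earlier results known.

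The genes most like MT2A over the 25 groups of 3 wells, by Pearson correlation of group mean log2 CPM among 5015 genes, were MT1E (0.951), GTPBP4 (0.940), MT1L (0.937), LOC541471 (0.895) and FKBP11 (0.886). Those most like MT1E were MT2A, MT1L (0.940), FKBP11 (0.911), VIM (0.881) and MCM10 (0.869). MT1X stood at rank 107 for MT2A (0.745) and MT1F at rank 1394 (0.294). The groups share populations, so these values describe the order of the populations and not independent points. Within groups, over 75 wells after removing the group means, MT2A correlated with MT1E at 0.67 and with MT1X at 0.63, and MT1E with MT1X at 0.76. Wells share depth and plate position, so this is a description. The part of reads shared between family members in these correlations was not tested.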

How the data were processed

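The deposited files hold, for each well, whole-number UMI counts per gene symbol. The authors' methods and the submitters' processing notes name BWA aln (0.7.10) against RefSeq transcripts of hg19, with a UMI counted once per gene and only UMIs aligning to 1 gene kept, so counts of near-identical metallothioneins can be reduced. Wells were grouped by their labels. The 13 wells with 2-digit replicate numbers were set aside as an alternative. All genes of the compared groups with a mean count above 1 were fitted by limma-voom with TMM scaling (limma 3.58.1, edgeR 4.0.16, R 4.3.3), two-sided, with Benjamini-Hochberg adjustment over all genes tested. Chemicals were fitted across populations with population as a term. The count of each gene was divided by the well total for CPM. Well totals ran from 692446 to 1895735 counts, which leaves wide errors for genes with few counts such as SLC30A1 and MT1M. The scripts were tested on simulated data.

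The members and gene lists were chosen with earlier results of these data known. The text names the 8 members, the other metallothioneins, at most 3 genes per further list and comparison by smallest adjusted p, and the 5 genes most like MT2A and MT1E among those with a mean of at least 10 CPM. Further called genes of a list stand beside its count by name, a choice made after their values were seen. Alternatives were edgeR's quasi-likelihood test, DESeq2 1.42.0, median-ratio size factors, no filter on low counts, all wells, the replicate number as a block, and leaving out each well.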

Additional observations from a re-analysis of the deposited data

Results flagged for a closer look

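No group held 4 or more of the compared wells, so no well was tested as an outlier. For MT1X and MTF1 there were populations whose wells under a chemical all lay above their DMSO wells beside populations whose wells all lay below. The values are log2 ratios of the mean CPM to that under DMSO, and the differences between populations were not tested. MT1X under CSC was at 0.28 in PIK3CA cells, -0.34 in NRF2 cells and -0.23 in GFP cells. Under BaP it was at 0.28 in NRG1, 0.22 in PIK3CA, 0.15 in GFP and 0.10 in FAT1 cells, against -0.30 in NRF2 cells. Under NNK it was at 0.18 in FGFR1 and 0.10 in PIK3CA cells, against -0.20 in NRF2 cells. NRF2 cells were thus lower in MT1X under each chemical than under DMSO, in ratios that share the same NRF2 wells under DMSO. MTF1 under BaP was at 0.83 in NRG1, 1.18 in PIK3CA and 1.5 in GFP cells, against -1.23 in NRF2 cells, on a mean of 5.72 counts a well.

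The 13 wells with 2-digit replicate numbers, which lay outside the fits given in the report and entered only the alternative with all wells, were read against the DMSO wells of their population, also without a test. Under CSC MT2A was higher in FGFR1 wells (25464 to 25955 CPM against 18936 to 20538 CPM, log2 ratio 0.39) and in NRG1 wells (41171 to 41344 CPM against 30472 to 34404 CPM, 0.35), and MT1X in NRG1 wells (0.25) and CDKN2A wells (0.19). Under BaP FGFR1 wells were higher in MT1F (49.0 to 52.1 CPM against 32.3 to 37.01 CPM, 0.53), MT1X (0.20) and MT2A (0.07). HcRed wells under BaP were higher in MT1F (0.45), MT1X (0.13) and MT1E (0.08). MT2A lay below the DMSO wells in CDKN2A wells under NNK (18919 to 19766 CPM against 20704 to 23701 CPM) and in HcRed wells under BaP (20970 to 21373 CPM against 21533 to 22755 CPM). The CDKN2A group under CSC had 3 such wells and the others 2 each.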

How the results depend on the processing

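No log2 fold change of a member that had been called changed sign under any alternative. Of 38 called member values edgeR kept 37, median-ratio size factors 37, no filter on low counts 36, and DESeq2 30 of the 35 it gave a value for. All wells kept 6 of the 6 it applied to. Left aside were FAT1 against GFP cells under DMSO and the differences between their responses. Other contrasts among the 38 still use FAT1 or GFP wells under DMSO. By DESeq2 the count of members called was 1 in NRF2 and 0 in FGFR1 cells against HcRed under DMSO, 2 in GFP cells and 2 in NRF2 cells under CSC. Without the filter it was 2 in FGFR1 cells. Under NNK it was 1 by DESeq2, edgeR, median-ratio size factors, no filter and all wells alike. Leaving out 1 well at a time gave 0 to 3 members in FGFR1 cells, 2 to 4 in GFP against HcRed cells and 0 to 2 under NNK. The differences between the responses of FAT1 and GFP cells use the DMSO wells behind the choice of members, so no count of members is given for them. The causes were not tested.

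DESeq2 called fewer genes over the whole table: from 551 to 342 in NRF2, from 104 to 46 in FGFR1, from 349 to 212 in NRG1, from 607 to 336 in PIK3CA, from 1570 to 841 in FAT1, from 2067 to 1252 in CDKN2A and from 1202 to 671 in GFP cells under DMSO, from 1241 to 747, from 1254 to 724 and from 1465 to 811 in FAT1 cells under CSC, BaP and NNK, from 319 to 197 in NRF2 cells under CSC and from 6 to 1 for the BaP response. All wells raised the count from 661 to 1134 for CSC, from 1036 to 1926 for BaP, from 819 to 1392 for NNK and from 516 to 1110 for CSC against BaP, and no filter to 2145 for NNK. Leaving out 1 well moved it over 1.5 times to 2245 for NNK without NRG1 replicate 2, from 349 to 204 in NRG1 cells without NRG1 replicate 1 and 220 without HcRed replicate 2, to 210 in NRF2 cells under CSC without HcRed replicate 2, and in FGFR1 cells to 329 without FGFR1 replicate 3, 61 without FGFR1 replicate 1 and 50, 53 and 60 without HcRed replicates 2, 1 and 3. For the response differences it ran from 0 to 7 for CSC and 3 to 17 for BaP.

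Replicate numbers did not pair the wells: same-numbered wells correlated at -0.11 to 0.1 in their deviations from the group means, over 33 pairs in 11 comparisons, in 0 of which every pair was over 0.1. With the replicate number as a block all 38 calls were kept. MT1E in NRF2 cells under DMSO (-0.11, adjusted p = 0.0313) and MT1G in PIK3CA cells (-1.39, adjusted p = 0.0447) were called in addition, and the whole table went from 0 to 3 genes for the CSC and from 6 to 13 for the BaP response difference.

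Depth limited the minor members. SLC30A1 and MT1M had no count in 18 and 24 of the 82 wells.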
